A study of Mus musculus with 16 samples.

Results

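The Wnt ligand, receptor and antagonist genes were taken as the autosomal protein-coding genes of the GENCODE M21 annotation whose symbols begin with Wnt, Fzd, Sfrp or Dkk followed by a digit, together with Lrp5 and Lrp6. This gave 39 of 20807 genes: 19 Wnt ligands, 10 Frizzled receptors, 2 co-receptors, 4 secreted Frizzled-related proteins and 4 Dickkopf proteins. Their chromatin was described in 8 lists of ChIP-seq peaks. These came from wild-type (WT, Atxn7l3+/+) cells and from cells without ATXN7L3 (KO, Atxn7l3-/-), the adaptor that the deubiquitylases USP22, USP27X and USP51 need to take ubiquitin off histone H2B. Mouse embryonic stem cells (mESCs) and mouse embryonic fibroblasts (MEFs) of both genotypes were used, and each was immunoprecipitated with an antibody against RNA polymerase II (Pol II) and with one against monoubiquitylated H2B (H2Bub1). All cells were of the DBA/2 x C57BL/6 strain. The null allele came from a cross to a deleter strain (FLP for Atxn7l3, by the study's text) and passed through the germ line, so the cells had lacked ATXN7L3 throughout. The mESCs came from blastocysts and grew with LIF, serum, the MEK inhibitor PD0325901 and the compound labelled CH99021, taken here as the GSK3 inhibitor CHIR99021. MEFs came from E10.5 embryos without head and gut and grew in serum without inhibitors, and by the study's account many cells in the KO cultures were round. Each group is a single library: differences are shown without replicates and without p-values, and how many reads stand behind a list is unknown.

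Wnt proteins are secreted, lipid-modified signals. On the receiving cell they bind a Frizzled receptor, a multi-pass membrane protein, and in the canonical branch a co-receptor, LRP5 or LRP6. Binding stops GSK3 from marking beta-catenin for destruction, and beta-catenin then enters the nucleus and acts with TCF and LEF factors on target genes. Secreted Frizzled-related proteins catch the ligand outside the cell, while DKK1, DKK2 and DKK4 bind the co-receptor. The pathway helps to hold mESCs in self-renewal, and a GSK3 inhibitor switches it on below the receptor, so the difference between mESCs and MEFs and the difference between their media cannot be told apart in these data. H2Bub1 is laid down along transcribed genes, and Pol II peaks at a promoter mark polymerase engaged there.

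The Pol II call at the promoter differed between WT and KO or between the WT cell types at 8 genes with a sequence in the table used here, and the 6 of them with the highest fold are shown next, since the contrasts below turn on them. The other two, Wnt5b and Wnt6, are not shown. Sequences are RefSeq's (GRCm38.p6, the build of the peak lists) and run 5′ to 3′ from 250 bases before to 50 after the RefSeq start. Of the 39 genes, 25 matched an entry, and where there were several the entry nearest the GENCODE start was used. The Fzd7 window is chr1:59481897-59482196, plus strand, and that of Sfrp2 is chr3:83766071-83766370, plus strand. For Wnt11 the window is chr7:98834862-98835161, plus strand, and for Dkk2 chr3:132085042-132085341, plus strand. The Wnt2b window is chr3:104961660-104961959, minus strand, and that of Wnt16 is chr6:22287977-22288276, plus strand. Capitals mark matches, on either strand, to the TATA box TATAAA, the GC box GGGCGG, and the TCF and LEF core CTTTGAA or CTTTGAT.
Fzd7: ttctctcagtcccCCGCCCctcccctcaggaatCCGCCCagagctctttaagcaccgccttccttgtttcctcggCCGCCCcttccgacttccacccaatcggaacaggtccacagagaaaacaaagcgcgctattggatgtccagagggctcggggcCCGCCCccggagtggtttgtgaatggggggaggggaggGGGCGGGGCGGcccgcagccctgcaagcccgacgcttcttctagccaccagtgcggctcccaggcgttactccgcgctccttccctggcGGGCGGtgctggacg
Sfrp2: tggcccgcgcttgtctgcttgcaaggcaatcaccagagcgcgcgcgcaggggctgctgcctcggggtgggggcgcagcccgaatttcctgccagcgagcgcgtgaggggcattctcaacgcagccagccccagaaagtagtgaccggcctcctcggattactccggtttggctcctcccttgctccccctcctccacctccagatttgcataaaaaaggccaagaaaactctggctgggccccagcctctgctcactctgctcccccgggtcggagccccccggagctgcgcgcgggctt
Wnt11: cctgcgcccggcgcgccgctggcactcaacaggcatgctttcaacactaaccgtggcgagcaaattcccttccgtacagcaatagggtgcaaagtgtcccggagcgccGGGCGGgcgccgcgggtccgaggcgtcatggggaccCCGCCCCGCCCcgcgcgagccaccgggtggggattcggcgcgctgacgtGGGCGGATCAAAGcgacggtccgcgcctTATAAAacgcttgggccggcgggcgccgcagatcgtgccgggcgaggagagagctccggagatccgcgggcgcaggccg
Dkk2: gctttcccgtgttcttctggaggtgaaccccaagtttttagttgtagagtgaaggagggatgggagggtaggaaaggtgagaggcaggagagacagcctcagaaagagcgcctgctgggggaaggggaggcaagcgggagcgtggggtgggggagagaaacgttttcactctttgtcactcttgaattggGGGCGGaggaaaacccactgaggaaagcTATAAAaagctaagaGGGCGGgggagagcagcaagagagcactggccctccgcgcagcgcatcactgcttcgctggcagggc
Wnt2b: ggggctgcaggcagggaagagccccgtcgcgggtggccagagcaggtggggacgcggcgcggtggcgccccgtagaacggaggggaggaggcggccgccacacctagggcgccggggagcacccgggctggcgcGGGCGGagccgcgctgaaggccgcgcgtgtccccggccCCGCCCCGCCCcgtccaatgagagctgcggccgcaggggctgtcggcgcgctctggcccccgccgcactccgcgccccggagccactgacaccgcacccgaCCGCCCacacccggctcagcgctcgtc
Wnt16: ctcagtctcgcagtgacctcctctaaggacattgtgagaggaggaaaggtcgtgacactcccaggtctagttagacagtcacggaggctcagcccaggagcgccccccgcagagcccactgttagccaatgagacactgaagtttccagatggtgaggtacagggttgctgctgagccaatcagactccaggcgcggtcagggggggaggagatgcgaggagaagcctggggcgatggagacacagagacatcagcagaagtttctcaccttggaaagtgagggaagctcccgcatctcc
Wnt11 and Dkk2 held a TATA box, which began 29 and 32 bases before the start. The Fzd7 promoter held 7 GC boxes and no TATA box, and the pair that begins at 54 and 49 bases before the start shares a base. Sfrp2 and Wnt16 held none of the 3 motifs. Wnt11 alone among these 6 held a TCF and LEF core, 51 bases before its start and directly beside a GC box. Of the 25 promoters matched, 19 (76.0%) held a GC box, against 48.3% of the 19174 promoters of autosomal protein-coding genes in the same table. A TATA box stood in 4 (16.0%), against 12.1%, and a TCF and LEF core in 2 (8.0%), against 7.36%. The median ratio of observed to expected CpG was 0.75 in the 25 and 0.60 in all. These matches are letters in a window and no measure of binding.

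Before the genes are described, some facts of the libraries bear on them. KO lists were shorter for Pol II, with 11963 peaks against 17074 for WT in mESCs and 32232 against 45870 in MEFs, whereas for H2Bub1 they were longer. Both lists of a pair therefore differ in length before any gene is considered. All 7 fibroblast markers had a Pol II promoter peak in both MEF lists and none in mESCs. Of 7 pluripotency markers, 6 had a peak in mESCs of WT and 5 in those of KO. In MEFs 0 of them had one in WT and 1 in KO, Tfcp2l1 with a fold of 7.08. Of 3 neural markers, Sox1 and Nes had a promoter peak in WT mESCs, and Nes alone in each other list. Of 8 epithelial and mesothelial markers, 0 had a promoter peak in WT MEFs and 4 in KO MEFs. These were Upk1b with a fold of 38.6, Upk3b with 18.1, Wt1 with 11.6 and Msln with 10.2. Epcam, Cdh1, Krt8 and Krt18, of the same list, had none in either MEF list. Of 3 endothelial and 3 blood markers, Pecam1 (4.31) and Csf1r (3.53) had a peak in KO MEFs only, and Spi1 had folds of 4.93 in WT and 8.42 in KO. The folds of all 7 fibroblast markers were lower in KO MEFs, as at Prrx1 with 18.5 in WT and 5.84 in KO, which is the commoner direction in this pair: of 10576 genes with a peak in both lists, 7135 had a lower fold in KO. Promoter peaks at 4 of 4 Y-linked genes were in the WT MEF list and at 0 of 4 in the other 3 lists. The part these differences between the cultures have in the values below was not tested. In bulk chromatin, fewer cells with Pol II at a gene and less Pol II in each cell cannot be told apart. At Atxn7l3 itself, H2Bub1 peaks covered 100% (WT) and 62.5% (KO) of the gene in mESCs, and 22.0% (WT) and 65.3% (KO) in MEFs. Over exons 2 to 12, the part that the study's construct flanks (numbered here by the transcript with most exons), mESC lists had 100% (WT) and 13.0% (KO), and MEF lists 21.6% (WT) and 19.6% (KO). Pol II peaks covered 20.7% and 11.9% of it in mESCs and 19.3% and 10.9% in MEFs. None of these peaks lay wholly inside that part, in WT or in KO. The H2Bub1 shares of the MEF lists barely differ here and do not check the label by themselves.

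Pol II was called at the promoter, within 1000 bp of the transcription start site (TSS), at 13 of the 39 genes in WT mESCs and at 21 in WT MEFs. The background, which here and below is the share of all 20807 genes called in the same way, was 35.3% and 55.3%, and the family's shares were 33.3% and 53.8%. KO mESCs had 11 such genes (28.2%, background 32.1%) and KO MEFs 17 (43.6%, background 52.3%). A promoter peak in any list was found at 22 genes (56.4%, background 58.9%), which comprised 9 of 10 Frizzled genes, both co-receptors and 7 of 19 ligands, along with Sfrp1, Sfrp2, Dkk2 and Dkk3. Promoter peaks in all 4 lists were found at 10 genes (25.6%, background 26.1%): Fzd1, Fzd3, Fzd4, Fzd5, Fzd6, Fzd8, Fzd9, Lrp6, Sfrp1 and Wnt9a. Most receptor genes were thus called in both cell types, and most ligand genes in neither. In WT mESCs the fold enrichment of these peaks, which MACS2 gives at the summit over the local background, ran from 3.00 to 4.87 with a median of 4.19. In WT MEFs it ran from 3.80 to 27.9 with a median of 11.1, and the medians over all genes with a promoter peak were 4.39 and 13.3. Folds are relative to each library's own background, so they rank peaks within a list and give no level between lists.

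**Figure D1:**
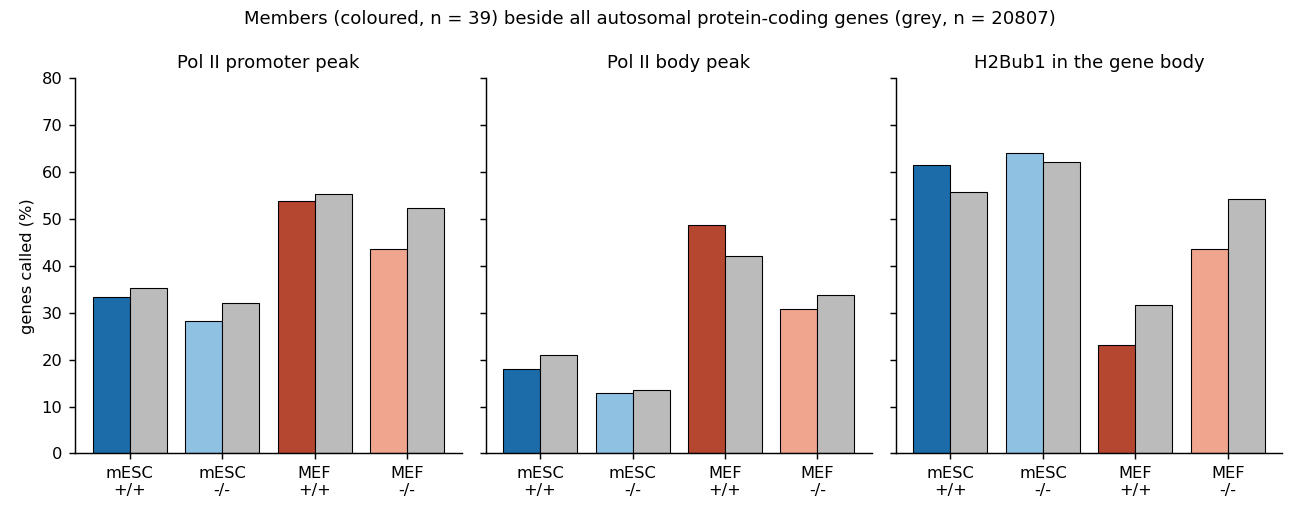
Percentage of genes with a Pol II promoter peak (left), a Pol II body peak (middle) or any H2Bub1 in the gene body (right) in each library. Coloured bars are the 39 Wnt pathway genes and grey bars all 20807 autosomal protein-coding genes; in percentage points, the family lay furthest below all genes for H2Bub1 in KO MEFs, with 43.6% against 54.3%.

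Between the WT cell types, 9 genes had a promoter peak in MEFs only (23.1%, background 21.9%) and 1 gene, Wnt6, in mESCs only (2.56%, background 1.90%). The 9 were Wnt2b, Wnt5a, Wnt5b, Wnt11, Wnt16, Fzd2, Fzd7, Dkk2 and Dkk3. Wnt5a and Wnt11, the ligands best known for signalling without beta-catenin, were both in this group.

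Among the ligands, Wnt9a, a canonical ligand of joint and limb tissue, had the highest promoter fold in every list but WT mESCs, where Wnt6 lay above it. Its values were 3.00 (WT) and 5.76 (KO) in mESCs, and 27.9 (WT) and 32.6 (KO) in MEFs. KO was above WT in both cell types, and the log2 ratio of KO to WT fold was 0.94 in mESCs and 0.23 in MEFs. All 4 peaks covered the TSS, with summits 52 to 205 bp downstream of it, in an exon except for WT mESCs, where the summit fell in an intron. Wnt5a (chr14:28504750-28527448, plus strand) had its nearest mESC peaks 829228 bp (WT) and 882033 bp (KO) from the TSS. In MEFs its promoter fold was 11.9 in WT and 9.17 in KO, with peaks of 7.83 kb and 7.65 kb that ran from upstream of the TSS far into the gene. Further peaks followed in the body, so that Pol II peaks covered 8.57 kb of the gene in WT MEFs and 12.1 kb in KO MEFs. Wnt5a was among the 3 genes of the family with a larger Pol II coverage in KO MEFs.

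Wnt11 was called in MEFs only, with a fold of 8.21 in WT and 7.64 in KO and no peak beyond the promoter. Wnt2b, a canonical ligand, had MEF folds of 6.45 (WT) and 3.96 (KO), and its covered length was 2.14 kb in WT and 0.44 kb in KO. Wnt16 had a promoter fold of 4.50 and 5 body peaks in WT MEFs, and no Pol II peak in any other list. In the sequence given above, its promoter is the one with the lowest CpG ratio among the 6, at 0.40. Wnt5b had 3.80 in WT MEFs and no promoter peak elsewhere. Its body peaks cannot be assigned to it, since Fbxl14 lies inside Wnt5b on the other strand and starts 64.7 kb from its TSS, where the highest of them were found. Wnt6 had a promoter fold of 3.21 and 2 body peaks in mESCs of WT, and nothing in the other lists. Its neighbour Wnt10a, 6.19 kb away, had 1 body peak in KO mESCs with a fold of 4.34. Both genes were called in mESCs alone, but in lists of different genotype.

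Wnt4 and Wnt3 had body peaks without a promoter peak. Wnt4, a ligand of kidney and gonad development, had 3 body peaks in WT MEFs and 5 in KO MEFs, all in the last part of the gene and beginning 17088 bp or more from a TSS that itself had none. Wnt3, which the early embryo needs to form the primitive streak, had 2 body peaks in KO mESCs only, at folds of 3.26 and 3.12. The other 9 ligands, Wnt1, Wnt2, Wnt3a, Wnt7a, Wnt7b, Wnt8a, Wnt8b, Wnt9b and Wnt10b, had no Pol II promoter or body peak in any list.

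Of the Frizzled genes, all but Fzd10 were called in MEFs of both genotypes. Fzd7, a receptor much used in mESCs, had folds of 24.0 in WT and 26.8 in KO MEFs. Its mESC promoter had no peak in WT and a fold of 3.55 in KO. The WT mESC list did hold a peak further in, which began 1463 bp from the TSS and had a fold of 3.73, and the KO mESC list had none there. Fzd5, a canonical receptor, had 4.53 (WT) and 4.93 (KO) in mESCs, and 15.2 (WT) and 22.6 (KO) in MEFs. It had the largest KO over WT log2 ratio in MEFs, 0.58. Fzd6 had 4.44 (WT) and 2.68 (KO) in mESCs, and 11.6 (WT) and 13.5 (KO) in MEFs, in a window that the non-coding Gm26704 shares. Fzd6 and Fzd3 are the receptors of planar cell polarity, the system that orients cells in a sheet. Fzd3 had 4.19 (WT) and 4.73 (KO) in mESCs, and 19.8 (WT) and 15.4 (KO) in MEFs.

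Fzd2 (chr11:102604396-102608058, plus strand) showed the widest gap between the MEF lists. Its promoter fold was 25.0 (WT) and 6.67 (KO), a log2 ratio of -1.91, and the nearest mESC peaks lay 9597 bp (WT) and 47892 bp (KO) from the TSS. Over all 10576 genes with a promoter peak in both MEF lists, the median log2 ratio was -0.22 and the 10th to 90th percentiles were -0.90 and 0.42, so Fzd2 lay outside that range. In WT MEFs a single peak of 9215 bp spanned the whole gene of 3.66 kb and both flanks. In KO MEFs 4 separate peaks took its place, and the highest of them had its summit at the same base, 187 bp into the only exon. Fzd8 differed in the same direction, with 23.0 (WT) and 11.2 (KO) in MEFs (log2 ratio -1.04) and covered lengths of 5.80 kb and 1.06 kb. Its mESC folds were 4.64 and 5.18.

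With WT given first, Fzd1 had 3.73 and 3.75 in mESCs, and 14.1 and 10.1 in MEFs. Fzd4, which also binds the non-Wnt ligand norrin, had 4.87 and 3.11 in mESCs and 11.1 and 9.26 in MEFs, in a window shared with the divergent start of Tmem135. Fzd9 had 4.73 and 5.36 in mESCs and 7.60 and 5.23 in MEFs. In contrast to these, Fzd10 had no Pol II peak within the gene in any list, and a WT mESC peak with a fold of 3.92 that began 3393 bp from its TSS lay past the gene end. Fzd9 and Fzd10 were the receptors with the lowest MEF values.

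The co-receptors were occupied in both cell types. Lrp6, the stronger of the pair in canonical signalling, had folds of 4.73 (WT) and 4.34 (KO) in mESCs, and 16.1 (WT) and 14.4 (KO) in MEFs. Lrp5 had 3.32 in mESCs of WT and no promoter peak in those of KO, where the nearest Pol II peak lay 21353 bp from the TSS. In MEFs it had 9.56 in WT and 11.3 in KO.

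Among the antagonists, no Dickkopf gene had a promoter peak in KO MEFs, whereas Dkk2 and Dkk3 had one in WT MEFs. Dkk2 had a promoter fold of 6.50 and a second, higher peak of 7.19 that began 1428 bp into the gene, and no Pol II peak within the gene in the other 3 lists. Dkk3, a divergent member that is not a clear inhibitor of the co-receptors, had a promoter fold of 7.91 in WT MEFs. It had 12 body peaks there, counting the promoter peak, which reaches past the window. All its Pol II peaks together covered 6.68 kb of its 43.0 kb. In KO MEFs no peak touched the gene. The strongest of the 12, with a fold of 12.5, begins near the Dkk3 end and runs past it towards the end of the convergent gene Usp47, so it cannot be assigned to either gene. In WT mESCs Dkk3 had 2 weak body peaks, with folds of 3.16 each. Dkk4 had 1 body peak in WT MEFs, with a fold of 4.84, next to the end of the convergent gene Polb, and Dkk1 had no peak of either mark in any list.

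Sfrp2, a decoy that is abundant in embryonic mesenchyme, had a promoter fold of 3.54 in WT mESCs and no peak in those of KO, and in MEFs 9.72 (WT) and 3.73 (KO). The log2 ratio in MEFs was -1.38, below the 10th percentile of all genes given above. Along the gene, 5 body peaks in WT MEFs had no counterpart in KO MEFs. Sfrp1 had 4.05 (WT) and 3.91 (KO) in mESCs, although the KO peak ended 877 bp upstream of the TSS and had its summit outside the window. In MEFs it had 8.38 in WT and 7.76 in KO. Neither Sfrp4 nor Sfrp5 had a promoter or body peak. Sfrp2, Dkk2 and Dkk3 are genes of mesenchyme, and the folds of the fibroblast markers were also lower in KO MEFs, as given above, and their part in these values was not tested.

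**Figure D2:**
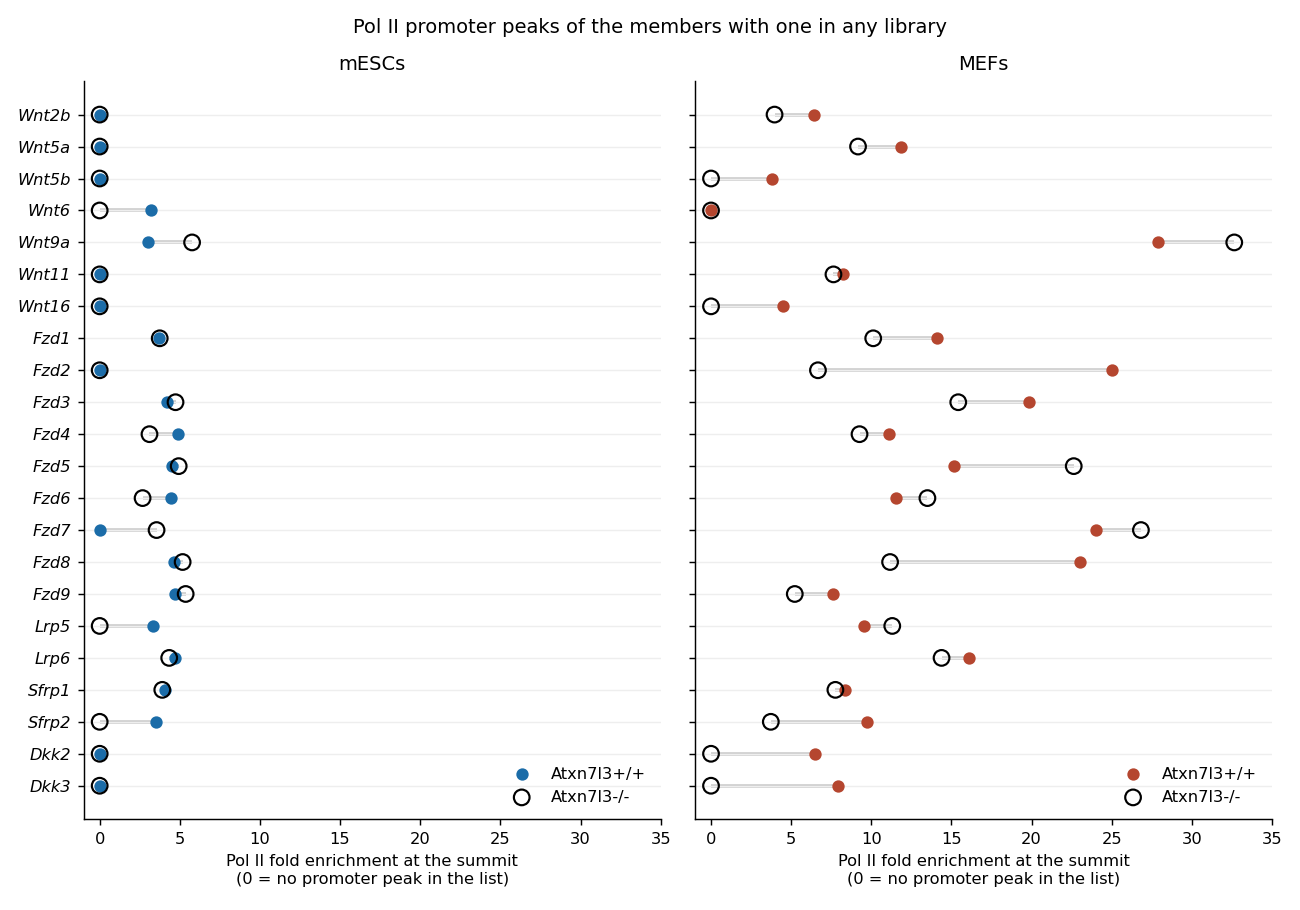
Fold enrichment at the summit of the highest Pol II promoter peak for the 22 genes called in any library, in mESCs (left) and MEFs (right); filled points are Atxn7l3+/+, open rings Atxn7l3-/-, and 0 means that the list holds no peak. In mESCs all values above 0 lay between 2.68 and 5.76, and in MEFs Fzd2 and Fzd8 show the longest gaps between genotypes.

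Counting the calls that differed between genotypes, 3 genes had a promoter peak in mESCs of WT but not of KO, namely Wnt6, Lrp5 and Sfrp2 (7.69%, background 8.04%). The reverse was found at Fzd7 alone (2.56%, background 4.85%). These calls rest on weak peaks: with the longer mESC list shortened to the length of the KO list, Wnt6, Sfrp2 and Wnt9a lost their WT peak, and Lrp5 alone was called in WT only. In MEFs 4 genes had a peak in WT only, namely Wnt5b, Wnt16, Dkk2 and Dkk3 (10.3%, background 4.43%), and 0 in KO only (background 1.51%). Among promoters with a WT MEF peak, those without one in KO were 4 of 21 here (19.0%) and 8.01% over all genes. For mESCs the same shares were 3 of 13 (23.1%) and 22.8%. The family stood near the background in mESCs, and above it in MEFs by a few genes, and all 4 of these had WT folds below the family's WT MEF median of 11.1.

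Where both genotypes had a promoter peak, the KO fold was higher at 6 of 10 genes in mESCs (60.0%, against 52.2% over all genes), with a median log2 ratio of 0.06 against 0.02 over all genes. In MEFs it was higher at 5 of 17 (29.4%, against 32.5% over all genes), namely Fzd5, Lrp5, Wnt9a, Fzd6 and Fzd7, with a median of -0.26 against -0.22 over all genes. The family's medians thus lay near those of all genes, while its individual genes spread from -1.91 to 0.58 in MEFs.

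**Figure D3:**
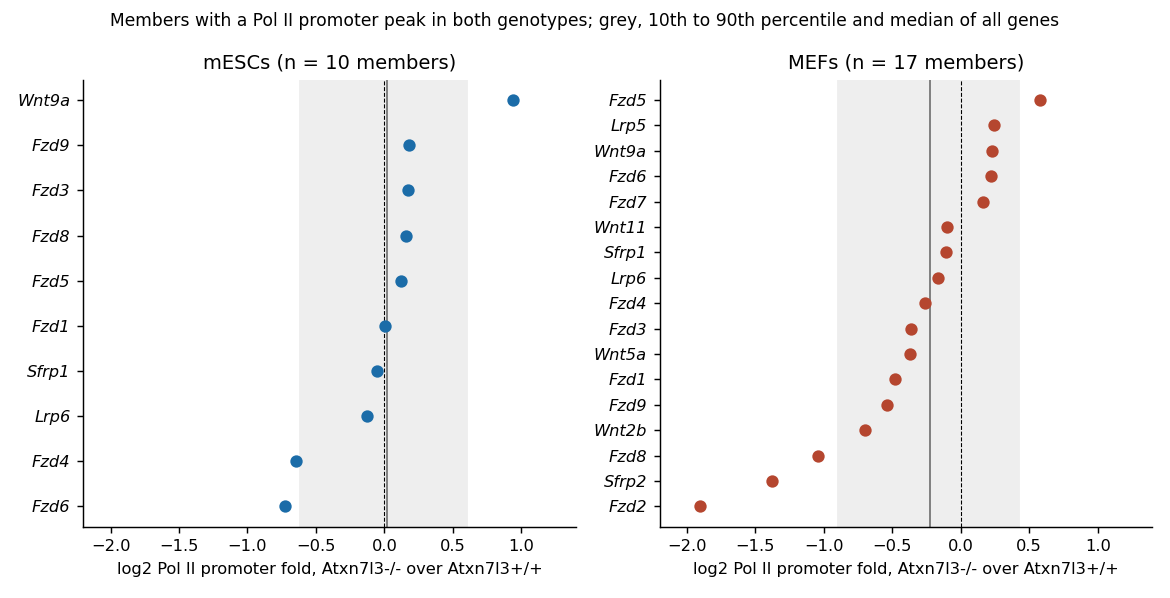
Log2 ratio of Atxn7l3-/- to Atxn7l3+/+ Pol II promoter fold for each gene with a peak in both, in mESCs (10 genes) and MEFs (17 genes), 1 library a group. The grey band spans the 10th to 90th percentiles of all genes with a peak in both and the grey line their median; In MEFs Fzd2, Sfrp2 and Fzd8 lie below the band and Fzd5 above it, and in mESCs Fzd4 and Fzd6 lie below it and Wnt9a above it.

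Beyond the promoter, a body peak (1 bp or more of a peak farther than 1000 bp downstream of the TSS) was found in mESCs at 7 genes of WT (17.9%, background 20.9%) and 5 of KO (12.8%, background 13.6%). In MEFs there were 19 in WT (48.7%, background 42.2%) and 12 in KO (30.8%, background 33.9%). Some of these are promoter peaks that extend past the window, as at Fzd1 and Fzd6. Of the 23 genes with any Pol II inside the gene in either MEF list, 20 had a smaller covered share in KO (87.0%, against 73.9% over all genes), and 3 a larger one. The median covered share of these genes was 12.9% in WT and 3.26% in KO. In all genes it was 5.50% in WT and 3.65% in KO. In mESCs 13 of 18 genes had a smaller share in KO (72.2%, against 70.3% over all genes). The WT MEF list is the longer one. With it shortened to the length of the KO list, the family still had body peaks at 19 genes in WT and 12 in KO (8117 and 7061 over all genes), and 20 of 23 had a smaller covered share in KO (87.0%, against 69.6% over all genes).

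In mESCs, H2Bub1 peaks touched the body of 24 genes (61.5%, background 55.7%) in WT and of 25 (64.1%, background 62.1%) in KO. In MEFs they touched 9 in WT (23.1%, background 31.7%) and 17 in KO (43.6%, background 54.3%). The WT MEF peaks were weak, and none of the 9 genes kept one at a -log10 q of at least 3. The median share of the gene covered in mESCs was 4.20% (WT) and 3.72% (KO), and in both MEF lists 0%. Both mESC medians were 0% once peaks under a -log10 q of 3 were dropped. Over all genes the mESC medians were 1.31% (WT) and 6.66% (KO), and those of MEFs 0% and 6.37%. The 95% rank intervals of the family's KO medians were 0% to 8.04% in mESCs and 0% to 8.89% in MEFs. They run over genes within 1 library, so they do not test the family against all genes or KO against WT. Among genes that had Pol II at the promoter in the same MEF list, the median share was 0% over 21 genes of the family in WT and 66.3% over 17 in KO, against 1.22% and 50.5% over all genes. A covered share at least 10 percentage points higher in KO was found at 6 genes in mESCs (15.4%, background 32.7%) and at 12 in MEFs (30.8%, background 46.2%). It was at least 10 points lower in KO at 3 genes in mESCs (7.69%, background 2.96%) and at 0 in MEFs (background 0.115%).

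In MEFs the 12 genes with more H2Bub1 in KO were 8 Frizzled genes, both co-receptors and the ligands Wnt5a and Wnt9a. At Fzd4 the covered share was 0% in WT and 85.7% in KO, and at Fzd6 1.42% in WT and 66.3% in KO. Wnt9a had 0% in WT and 93.7% in KO, with a peak of 25.0 kb that began 58 bp upstream of the TSS, and Wnt5a 0% and 64.5%, with one of 14.0 kb. Over the 12 genes the log2 ratio of Pol II promoter fold ran from -1.91 at Fzd2 to 0.58 at Fzd5, and it was below 0 at 7 and above 0 at 5. For Fzd2 the covered share was 53.8% in WT and 100% in KO, while its Pol II fold had the lowest ratio of KO to WT in the family.

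Other receptors had coverage in WT MEFs already. Fzd1 had 67.8% in WT and 98.6% in KO, Fzd7 73.0% and 100%, and Fzd8 58.5% and 96.4%. These are short genes of a single exon, as are Fzd2, Fzd9 and Fzd10, so a single peak can cover most of the gene. Fzd5 had 30.7% in WT and 100% in KO, and the long gene Fzd3 0% and 10.9%. Lrp5 had 13.2% and 45.1%, and Lrp6 19.8% and 74.3%. Of the 17 genes that had Pol II at the promoter in KO MEFs, 16 had H2Bub1 there (94.1%, against 93.3% over all genes), and the exception was Fzd9. In WT MEFs 9 of 21 did (42.9%, against 53.4% over all genes).

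Of the antagonists, Sfrp1 had a MEF share of 0% (WT) and 8.89% (KO), and Sfrp2 one of 0% and 9.0%. Wnt2b had 0% in WT and 5.56% in KO, and Wnt11 0% and 6.49%. Dkk2, Dkk3 and Wnt16, whose promoters had Pol II in WT MEFs only, had no H2Bub1 in either MEF list. The mark touched 0.79% of Wnt5b in WT MEFs. Of the 17 genes with H2Bub1 in KO MEFs, Wnt5b alone had no Pol II promoter peak there, and its share of 5.86% lies with Fbxl14 as well.

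In mESCs the mark also covered genes without Pol II peaks. Fzd10 was covered over 100% of its length in both genotypes, without a Pol II promoter peak in either, and the non-coding 5930412G12Rik starts 151 bp away on the other strand. Fzd9 had mESC shares of 98.7% (WT) and 100% (KO) and 0% in both MEF lists, although its promoter had a Pol II peak in all 4 lists. Sfrp1 had a like contrast, with mESC shares of 91.6% (WT) and 85.1% (KO). Fzd5 had 98.7% and 100%, and Fzd7 69.7% and 100%. Fzd2, with no Pol II promoter peak in mESCs, had 70.2% in WT and 57.8% in KO, a direction that turns with the threshold on the peaks, as given further on. Altogether 16 genes had H2Bub1 in mESCs without a Pol II promoter peak there (41.0%, background 26.0%). H2Bub1 in an mESC list but in neither MEF list was found at 14 (35.9%, background 14.1%), whereas Wnt5a was alone in having it in MEFs and not in mESCs (2.56%, background 3.37%). Most of these rest on weak peaks. With peaks under a -log10 q of 3 dropped, the 16 became 4 (Wnt3, Wnt5b, Fzd2 and Fzd10, 10.3%, background 12.5%), and the 14 became 3 (Wnt3, Fzd9 and Fzd10, 7.69%, background 5.11%). MEF-only H2Bub1 then held for 4, Wnt5a, Fzd1, Fzd6 and Sfrp2 (10.3%, background 9.08%).

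The 6 genes with more H2Bub1 in KO mESCs were Wnt7b, Wnt9a, Fzd7, Lrp5, Lrp6 and Sfrp5, of which Wnt9a, Fzd7, Lrp5 and Lrp6 also had more in KO MEFs (10.3%, background 26.8%). Wnt7b, an epithelial ligand, had 6.67% in WT and 27.7% in KO mESCs without any Pol II peak. Wnt9a had 22.3% in WT and 39.1% in KO, Lrp5 25.3% and 45.1%, and Lrp6 5.07% and 27.4%. Sfrp5 had 0% and 25.4%. The 3 genes with less were Wnt9b with 14.9% in WT and 0% in KO, Wnt11 with 16.4% and 0%, and Fzd2. The peaks at Wnt9b and Wnt11 in WT mESCs were weak, with a highest -log10 q of 1.36 and 1.63. Many of these differences rest on weak peaks in either genotype. With peaks under a -log10 q of 3 dropped, 3 of the 6 genes with more kept the call (Wnt9a, Fzd7 and Lrp5), Wnt7b and Sfrp5 had no H2Bub1 in either mESC list, and Lrp6 differed by 6.29 points. None of the 3 genes with less kept it, and Fzd2 turned to 0% in WT and 57.8% in KO. All 12 MEF calls were kept. Fzd8 had 49.8% and 53.5%, Fzd1 20.6% and 15.6%, Fzd4 9.85% and 4.03%, and Wnt5b, shared with Fbxl14, 8.25% and 8.04%. At Fzd3, Fzd6, Wnt2b, Wnt3, Wnt4, Wnt6, Wnt10a, Sfrp2 and Dkk3 the share was at most 7.64% in either mESC list. Below 10% in every list and without Pol II were 9 genes (23.1%, background 30.5%), Wnt1, Wnt2, Wnt3a, Wnt7a, Wnt8a, Wnt8b, Wnt10b, Sfrp4 and Dkk1, and of these Wnt2, Wnt8a, Wnt8b, Wnt10b and Dkk1 had no peak of either mark (12.8%, background 27.2%).

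**Figure D4:**
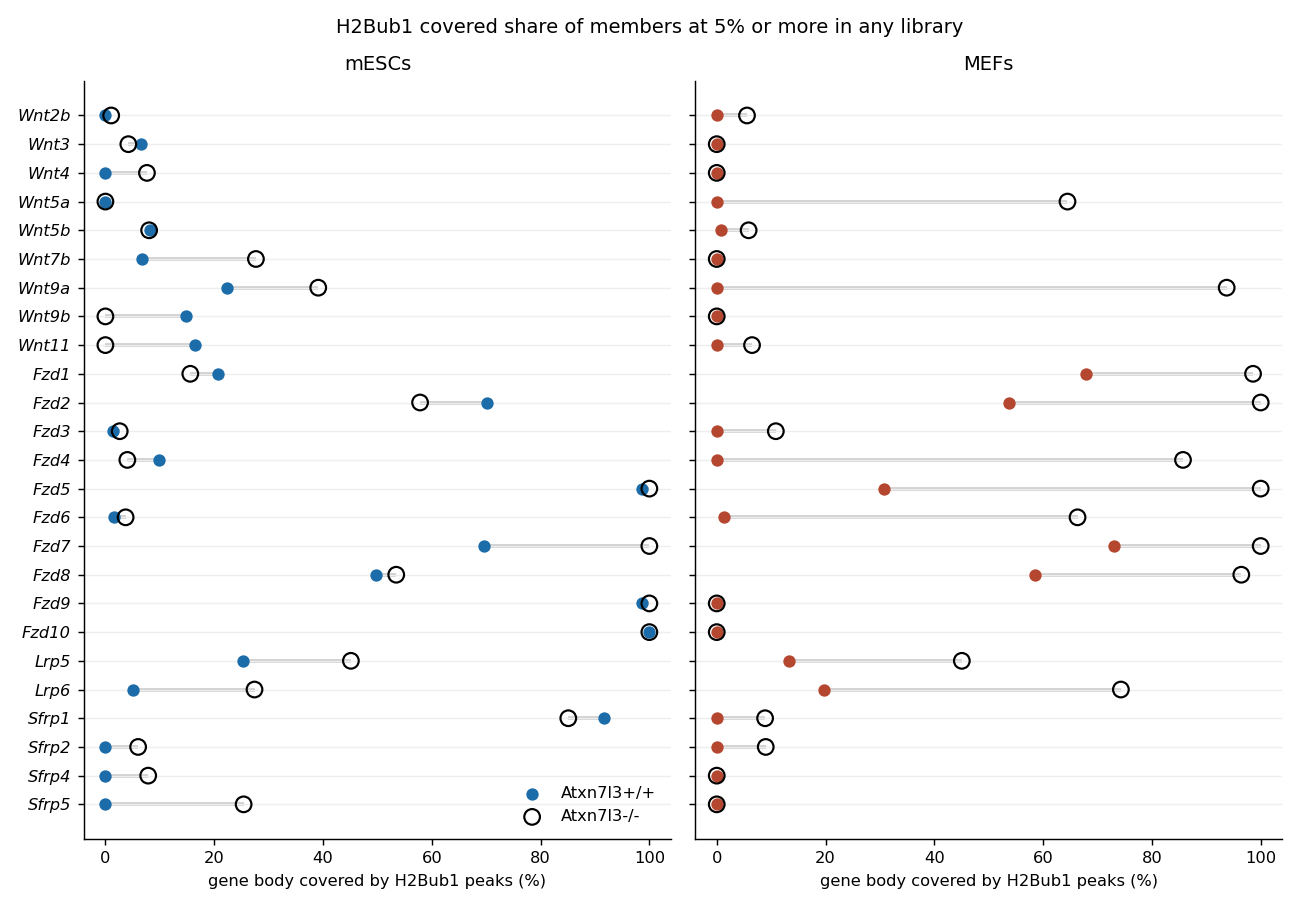
Percentage of the gene body covered by H2Bub1 peaks in mESCs (left) and MEFs (right) for genes at 5% or more in any library; filled points are Atxn7l3+/+ and open rings Atxn7l3-/-. In MEFs the ring lies to the right of the point at all Frizzled genes but Fzd9 and Fzd10, and in mESCs the points and rings lie close together at most genes.

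**Figure D5:**
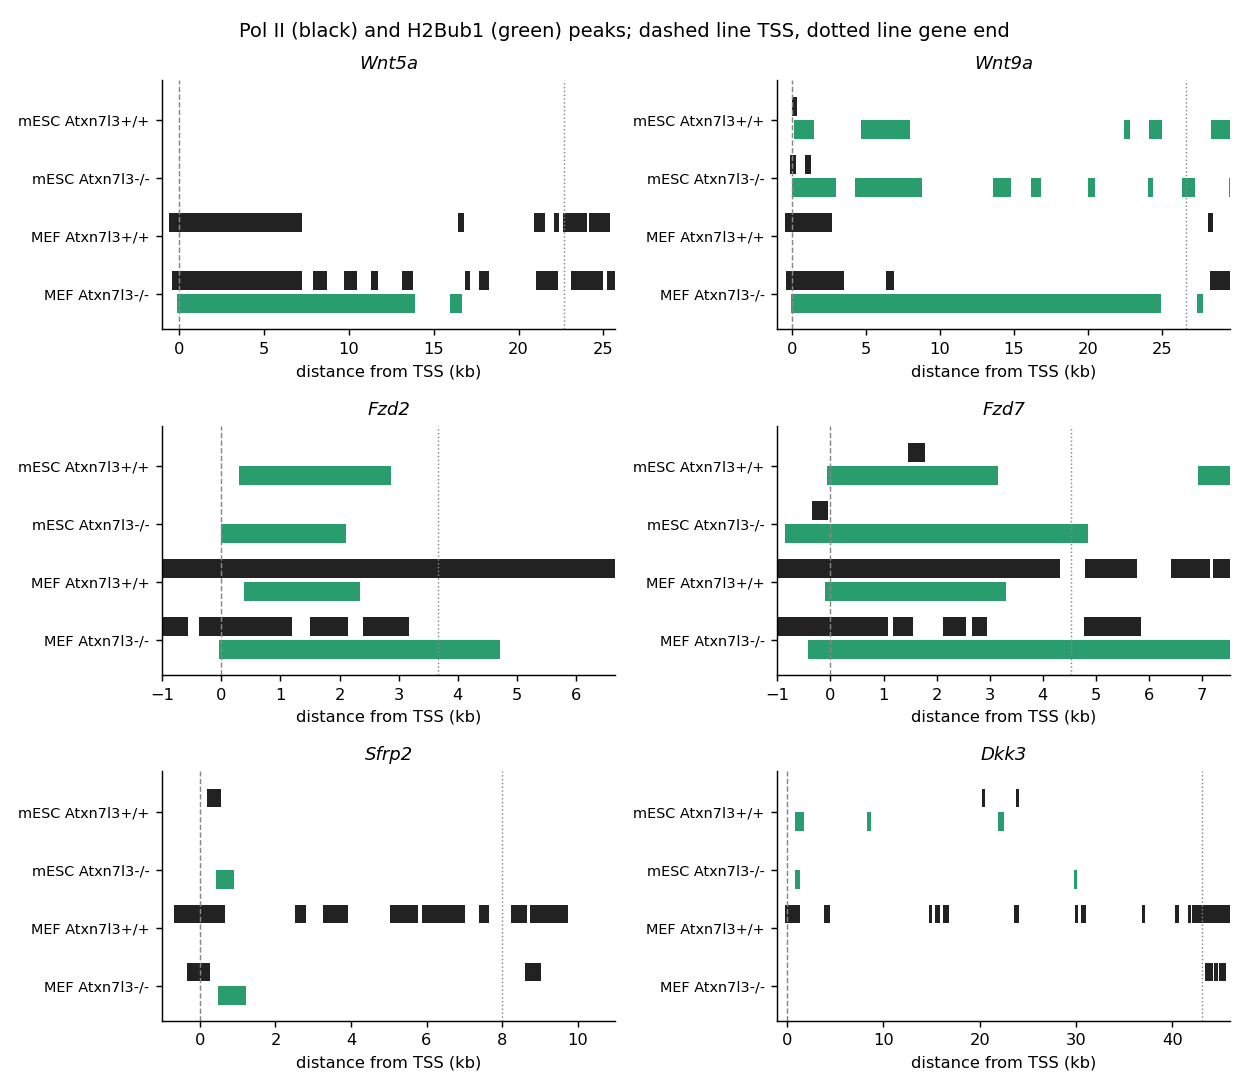
Pol II peaks (black) and H2Bub1 peaks (green) along 6 genes in each of the 4 cell groups, by distance from the TSS in kb; the dashed line marks the TSS and the dotted line the gene end. Wnt5a, Wnt9a, Fzd2 and Fzd7 show longer H2Bub1 peaks in Atxn7l3-/- MEFs, and Dkk3 and Sfrp2 show Pol II peaks of Atxn7l3+/+ MEFs that have no counterpart in Atxn7l3-/- MEFs.

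The other genes of the pathway were counted from lists of secretion factors, further ligands, receptors and antagonists, cytoplasmic relays and nuclear factors, 55 autosomal genes in all. A Pol II promoter peak was called at 24 of these in each mESC list (43.6%, against 35.3% of all genes in WT and 32.1% in KO). In MEFs it was called at 41 in WT (74.5%, against 55.3%) and 38 in KO (69.1%, against 52.3%). H2Bub1 was at least 10 points higher in KO at 27 in mESCs (49.1%, against 32.7%) and at 34 in MEFs (61.8%, against 46.2%). It was lower at 1 in mESCs (1.82%, against 2.96%) and at 0 in MEFs (against 0.115%). Of the 27 and the 34, 14 and 17 were among the 20 cytoplasmic relays. Further ligands differed between the MEF lists. Rspo2 and Rspo3, secreted amplifiers of Wnt signalling, had promoter folds of 11.0 and 10.6 in WT MEFs and no peak in KO, whereas Rspo1 had none in WT and 12.7 in KO with 95.1% of its gene covered by H2Bub1. Wls, the carrier that takes Wnt proteins to the cell surface, had 23.4 (WT) and 20.2 (KO) in MEFs and no promoter peak in mESCs. The epithelial and mesothelial markers called in KO MEFs are given above, and their part in the Rspo1 values was not tested.

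Of 11 genes often read as targets of beta-catenin, 9 had a promoter peak in at least one WT list, 7 in each (63.6%, against 35.3% of all genes in mESCs and 55.3% in MEFs). In KO 3 had one in mESCs (27.3%, against 32.1% of all genes) and 4 in MEFs (36.4%, against 52.3%). Of the 7 WT peaks, 4 had no counterpart in KO mESCs (57.1%, against 22.8% over all genes) and 3 of 7 had none in KO MEFs (42.9%, against 8.01%). The WT Pol II list is the longer one in both cell types, and the target calls are given for the full lists only. Those with a peak in WT mESCs but not in KO were Axin2, with a WT fold of 3.30, Nkd1 with 3.87, Sp5 with 4.73 and Myc with 5.30. H2Bub1 was at least 10 points lower in KO mESCs at 3 targets (27.3%, against 2.96% of all genes). These were Sp5 with 95.3% in WT and 19.8% in KO, Myc with 87.6% and 34.3%, and Ccnd1 with 73.6% and 53.9%. The mark was at least 10 points higher at 2 (18.2%, against 32.7%), Znrf3 with 8.93% and 49.7%, and Cdx1 with 8.58% and 38.3%. In MEFs the calls missing in KO were Axin2 at 3.54, Lef1 at 3.77 and Lgr5 at 4.57. MEF H2Bub1 was higher in KO at 4 targets (36.4%, against 46.2% of all genes) and lower at 0 (against 0.115%). Axin2, without a Pol II promoter peak in KO, was among the 4 with 0% in WT and 20.7% in KO. Axin2, the target used most widely as a readout, was thus called in both WT lists and in neither KO list, at low folds. This list overlaps those of the other pathway genes.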

How the data were processed

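Peak lists were made by the authors: single-end reads were aligned to mm10 with Bowtie 1.0.0 and peaks called in each library with MACS2 2.1.1.20160309, narrow for Pol II and broad for H2Bub1 (tools and versions per the submitters' processing notes). The control and thresholds are not given in the sources used here, nor is how the authors' normalisation (H2Bub1 by size factors over intergenic regions, Pol II by mapped reads) entered the calls. Each deposited peak has a fold, the linear ratio of signal to local background (for narrow peaks at the summit, for broad ones as a mean along the peak). The authors also give -log10 p and -log10 q, and the summit offset. The other 8 samples, inputs and Pol II Ser2P, were not analysed here.

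Peaks were set against GENCODE M21 (GRCm38, the same build). A promoter was 1000 bp either side of the TSS, a body peak overlapped the gene by 1 bp beyond that, and the H2Bub1 share was the covered percentage of the gene. A fold of 0 stands for no peak. Differences between genotypes are between 2 single libraries. Medians were given exact 95% binomial intervals of their ranks over genes, which test no difference between groups. As alternatives, peaks under a -log10 q of 3 were dropped, the longer list of each pair was shortened by -log10 p, and the promoter was narrowed to 100 bp before and 300 bp after the TSS. Others were the TSS of any transcript, the summit in place of the overlap, an H2Bub1 call at 10% of the gene, H2Bub1 peaks under 1000 bp apart joined, and only genes with no protein-coding gene within 5000 bp. All genes of the family are accounted for, with values where a Pol II peak or an H2Bub1 share of 10% was found in any list. The genes and lists were chosen with earlier results of these data known. X-linked pathway genes were left out. The code was checked on clear simulated peaks without noise at 1200 genes. By construction 100% of 200 changed promoters and of 200 changed H2Bub1 shares were recovered, which gives no sensitivity for weak peaks. Python 3.11.15, numpy 2.4.6, scipy 1.17.1 and pandas 2.3.3 were used.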

Additional observations from a re-analysis of the deposited data

Results flagged for a closer look

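KO lay on opposite sides of WT for some values in mESCs and MEFs. With 1 library in each group this difference was not tested. The H2Bub1 covered share of Fzd2 differed between KO and WT (KO minus WT) by -12.4 percentage points in mESCs and by 46.2 points in MEFs. The mESC value turned to 57.8 points once peaks under a -log10 q of 3 were dropped, so both cell types then had the same direction. The log2 ratio of KO to WT Pol II promoter fold was 0.0066 in mESCs and -0.48 in MEFs at Fzd1, 0.17 and -0.36 at Fzd3, and 0.16 and -1.04 at Fzd8. It was 0.18 in mESCs and -0.54 in MEFs at Fzd9. At Fzd6 it was -0.73 in mESCs and 0.22 in MEFs.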

How the results depend on the processing

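Of 112 values for the family under alternatives, 102 stayed within 1.5 times the count, or within the interval of the median, and 10 moved. Intervals of the H2Bub1 medians run over genes and begin at 0%, so no fall of such a median could count as a move. Of 337 values of single genes, 278 stayed, 58 moved and 1 reversed. The threshold on -log10 q gave 52 of those moves. Dropping peaks under a -log10 q of 3 moved the number of genes with H2Bub1 to 10 in WT mESCs, 12 in KO mESCs and 0 in WT MEFs, where 1199 of all genes remained called, so the WT MEF coverage rests on weak broad peaks. It moved the genes with a promoter peak in WT mESCs only to 5, through Fzd4 and Fzd6, and those with less H2Bub1 in KO mESCs to 0. The family's median H2Bub1 shares in mESCs, 4.20% (WT) and 3.72% (KO), became 0%, which their intervals hold; over genes without neighbours they were 2.96% and 1.37%. With the same peaks dropped, the mESC difference at Fzd2 in H2Bub1 share (KO minus WT) turned from -12.4 to 57.8 points. Of the 6 genes with more H2Bub1 in KO mESCs, 3 kept the call and Fzd2 joined them, while all 12 in MEFs kept it. With equal numbers of peaks, 4 genes had a body peak in WT mESCs, 1 had a promoter peak in WT mESCs only and 2 in KO mESCs only. An H2Bub1 call at 10% of the gene gave 12 genes in WT and 13 in KO mESCs. The 4 promoters in WT MEFs only held under every alternative run, as a count. After the data were seen, the WT lists of both cell types were cut to equal length, which left both counts between cell types within 1.5 times their values. The threshold and the equal numbers were also applied, after the data were seen, to the Pol II covered shares and to the sets of genes by H2Bub1. With equal numbers, 18 genes had H2Bub1 in mESCs without a Pol II promoter peak there and 16 had it in mESCs alone, and the covered share was smaller in KO at 10 of 15 genes in mESCs. No paired analysis was possible because each group has 1 library. Depth limits absence: a promoter without a peak may hold Pol II below the caller's threshold, more so in the shorter lists.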
